A study of Homo sapiens with 4 samples.

Results

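The integrin subunit genes and the laminin chain genes were read from the gene expression table of MDA-MB-231, a line of triple-negative breast cancer cells, and LM2-4175, which was isolated from it, spreads to the lung and is named LM2 in the table. The genes were chosen by name, with earlier results of these data known. They were 26 integrin genes and 11 laminin genes, 37 in all, and made up 38 of the 57815 rows of the table because ITGB3 was listed under both of its gene identifiers. RNA-Seq was done on 2 libraries of each cell line, grown in DMEM with serum and given no treatment, and 4 libraries in all. The table combines both libraries of a cell line in 1 FPKM per gene, so no difference below has a replicate check and no p-value is given.

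Integrins are receptors made of 1 α and 1 β subunit that hold cells to the matrix and pass signals across the membrane. The α subunit largely sets what is bound, namely collagen, laminin, proteins with the RGD sequence, or proteins on other cells. Laminins are secreted trimers of 1 α, 1 β and 1 γ chain that form the sheet of the basement membrane, on which epithelial cells sit and through which cancer cells pass when they spread.

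Expression was given as FPKM, fragments scaled to the length of the transcript and to the number of fragments mapped, which allows levels to be compared between genes. Each FPKM stood with a lower and an upper bound, written here in parentheses, and it is not stated whether these bounds cover the spread between libraries. Changes are log2 ratios of LM2 to MDA-MB-231 after 1 FPKM was added to each, with a standard error (SE) taken from the bounds. Where values are given as a pair, MDA-MB-231 comes first and LM2 after it. No statistical test was run, and a gene counted as tested, that is compared, where its status was OK and its mean FPKM was at least 0.5, and it was called where it changed at least 1.5-fold and its bounds in LM2 lay clear of those in MDA-MB-231. Of the 38 rows, 25 were tested, 16 of integrins and 9 of laminins. The table itself holds no read totals, and precision was judged by the bounds. The upper bound lay a median of 39.8% above the FPKM in MDA-MB-231 and 38.7% in LM2 for the genes described here, against 38.6% and 38.1% for all 13911 genes tested.

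As a check on the kind of cell, VIM, CD44, EGFR, KRT18 and AXL, which MDA-MB-231 is known to express, each had at least 1 FPKM in both cell lines. KRT18 was called lower in LM2, with 448.5 and 181.1 FPKM. Since LM2 was isolated from MDA-MB-231, such markers cannot show whether the labels were swapped. ESR1 and PGR, the genes of the hormone receptors that triple-negative cells lack, were at most 0.0331 FPKM. CDH1 was under 1 FPKM in both lines, whereas EPCAM, an epithelial marker set down as absent or low, had 12.3 FPKM in MDA-MB-231 and 4.93 in LM2. EPCAM was called lower in LM2, as KRT18 was. GATA3 had 3.10 and 2.42.

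Of the genes tested, 4 were called higher in LM2. They were the collagen receptor ITGA2, the leukocyte integrin chain ITGB2, and the laminin chains LAMB3 and LAMA1. These 4 genes were 16% of the 25 tested, whereas 4.67% of all genes tested were called higher. LAMA1 passed the filter only through its LM2 value. With a mean of at least 1 FPKM asked for, 3 of 20 were called higher, against 4.43% of all genes tested. Since the genes were chosen with earlier results of these data known, these shares only describe them. None of the 25 was called lower, against 4.61% of all genes tested. By the fold alone, with the bounds ignored, 7 were higher and 2 lower, with 10.3% and 11.8% of all genes tested on those sides. The 3 added above were ITGA1, LAMA4 and LAMA5, and the 2 below were ITGB6 and LAMB1. ITGB6 passed the filter only through its MDA-MB-231 value. The median change was 0.07 for integrins and 0.52 for laminins on the log2 scale, beside -0.04 for all genes tested.

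**Figure D1:**
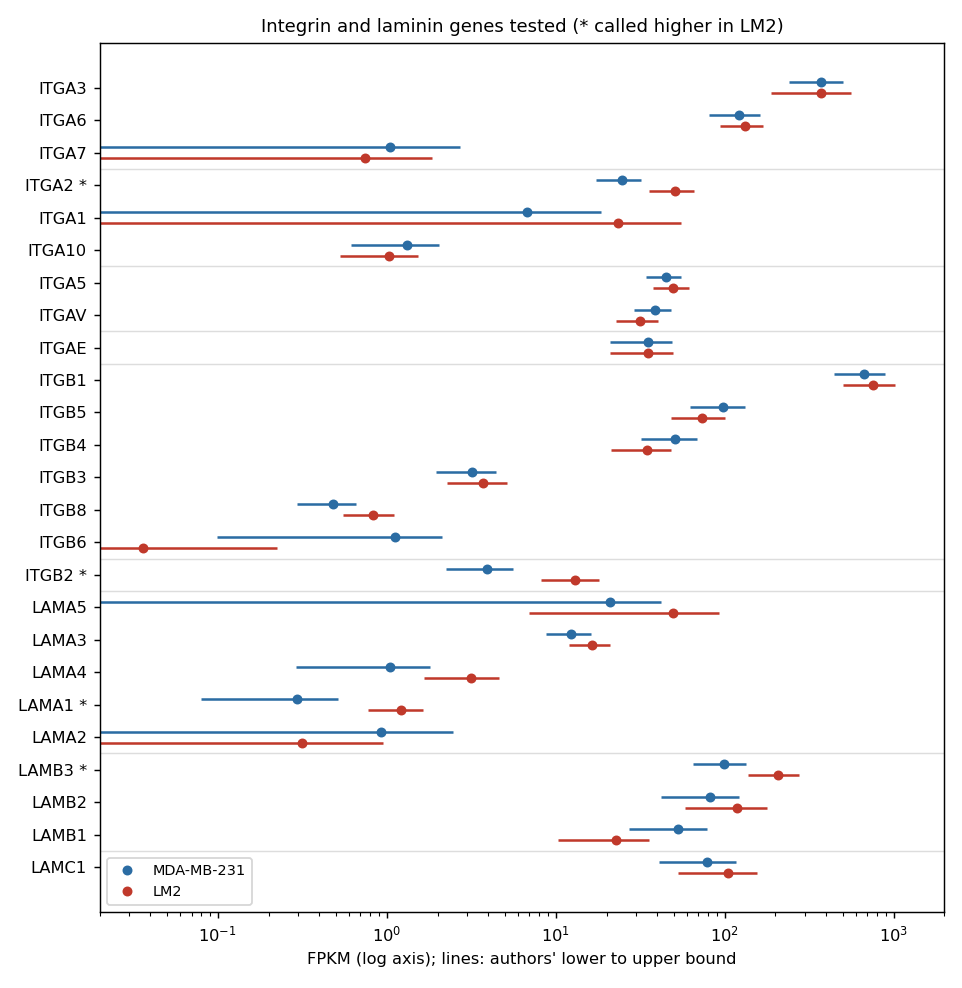
FPKM of the 25 tested genes in MDA-MB-231 (blue) and LM2 (red) on a log axis, with lines from the authors' lower to upper bound, which run off the left edge where the lower bound is 0. Grey lines part the groups by role, and the lines of ITGA2, ITGB2, LAMA1 and LAMB3, marked with an asterisk, do not overlap.

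LAMB3 had the highest FPKM of the 11 laminin genes in both cell lines. It encodes the β3 chain, which joins the α3 chain of LAMA3 in the laminin that anchors epithelia to the tissue beneath. LAMB3 (ENSG00000196878, at 209788215–209825770 on the minus strand of chromosome 1, GRCh37) had 99.2 FPKM in MDA-MB-231 (65.0–133.3) and 207.7 FPKM in LM2 (138.0–277.4). The bounds were apart, LM2 was at 2.09 times MDA-MB-231 and the log2 change was 1.06 ± 0.34 (SE). Among all genes ranked by FPKM, LAMB3 stood at 1044 in MDA-MB-231 and at 370 in LM2.

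LAMB1 encodes the widespread β1 chain and went the other way. It had 52.9 FPKM in MDA-MB-231 (27.1–78.7) and 22.9 FPKM in LM2 (10.3–35.5), with a log2 fold change of -1.17 ± 0.51 (SE). Its bounds overlapped, so it was not called. The DLD gene lies on the opposite strand over 1.61% of the exon bases of LAMB1, and whether the counting used strand is not stated. LAMB2, which encodes the β2 chain, had 82.1 FPKM (42.2–122.1) against 118.4 FPKM (57.9–178.8), and its bounds overlapped over most of their length.

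In MDA-MB-231 these 3 β chains were within a factor of 1.88 of each other, and the bounds of each overlapped those of the other two. In LM2, LAMB3 was listed at 9.07 times LAMB1, and the bounds of LAMB1 lay below those of both LAMB2 and LAMB3. LAMB3 made up 42.3% of the summed FPKM of the β chains in MDA-MB-231 and 59.5% in LM2. LAMB1 went from 22.5% of that sum to 6.56%, whereas LAMB2 held 35.0% and 33.9%. LAMB4, the remaining β chain gene, was under the filter with 0.354 FPKM (0.0174–0.691) and 0.0553 FPKM (0–0.185).

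The α chain sets which receptors a laminin binds. LAMA5 encodes the α5 chain of most adult basement membranes and was listed highest of the α chains, with 20.9 FPKM (0–42.0) in MDA-MB-231 and 49.75 FPKM (6.98–92.5) in LM2. Its log2 fold change of 1.22 had an SE of 0.93, and the bounds overlapped widely. LAMA5 shares 1.71% of its exon bases with ADRM1 on the opposite strand, a gene with 188.0 FPKM in MDA-MB-231 against 162.6 in LM2. LAMA3 had 12.4 FPKM (8.71–16.1) against 16.5 FPKM (12.0–20.9), which also overlapped and were known more tightly.

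The other α chains were low. LAMA1, the α1 chain known mainly from the embryo, was at 0.296 FPKM (0.0794–0.513) in MDA-MB-231 against 1.21 FPKM (0.777–1.65) in LM2. It was called, with LM2 at 4.09 times MDA-MB-231 and a log2 change of 0.77 ± 0.19 (SE). At such low levels the added 1 FPKM sets the size of the change, which was 1.73 with 0.1 FPKM added and 2.03 with none. The gene passed the filter only through the LM2 value. The call was lost when a mean of 1 FPKM was asked for, and when a 2-fold change was asked for after 1 FPKM was added. LAMA1 (ENSG00000101680) lies at 6941741–7117796 on the minus strand of chromosome 18, GRCh37, and antisense genes cover 11.1% of its exon bases, all of them listed at no more than 0.0089 FPKM. LAMA4, the α4 chain of vessels and of other tissues of mesenchymal origin, had 1.05 FPKM (0.290–1.81) against 3.14 FPKM (1.66–4.63), with bounds that overlapped by a narrow margin. LAMA2, the α2 chain of muscle, had 0.927 FPKM (0–2.45) against 0.315 FPKM (0–0.956).

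LAMC1, which encodes the γ1 chain shared by most laminins, had 78.3 FPKM (40.6–116) against 104.2 FPKM (52.8–155.7). The ratio of 1.33 was under 1.5 and the bounds overlapped. LAMC3 was under the filter, with 0.0238 FPKM in MDA-MB-231 and 0.00616 FPKM in LM2. Summed over the 11 laminin genes, FPKM came to 348.5 in MDA-MB-231 against 524.2 in LM2, a ratio of 1.504. These sums and the shares carry no error.

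**Figure D2:**
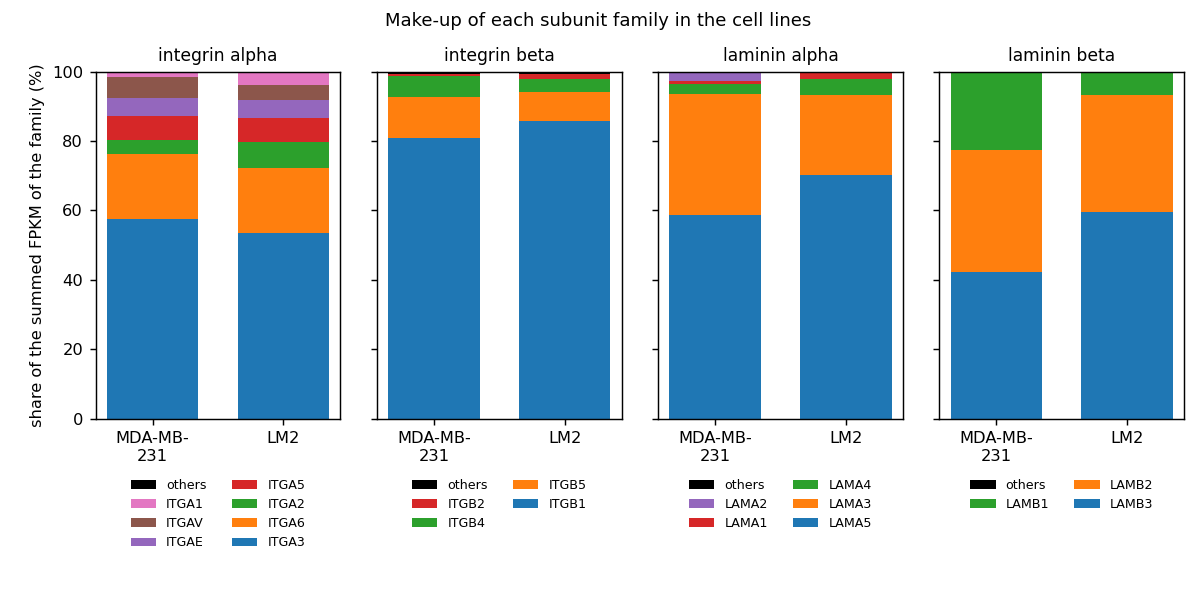
Share of the summed FPKM of each subunit family (%) held by each gene in MDA-MB-231 and LM2, for integrin α and β subunits and laminin α and β chains. LAMB3 went from 42.3% to 59.5% of the laminin β chains while LAMB1 went from 22.5% to 6.56%, whereas ITGB1 held 80.9% and 85.7% of the integrin β subunits.

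RefSeq promoters, the 250 bases before and 50 bases after a gene's start on GRCh38.p14, were found for 26 of the 37 gene names and gave 33 sequences, since some genes have several starts. They were searched on both strands for the AP-1 motif TGANTCA, for the TFAP2 motif GCCNNNGGC and for the NF-kB motif, because the study named members or regulators of these factor families. The promoters of LAMB3 and LAMA3 are shown because both genes, whose chains join in 1 laminin, held the AP-1 motif, which 7.71% of all 35116 promoters hold. Of the LAMB3 starts, only start 3 held the AP-1 motif. LAMB3 start 1 held no AP-1 motif and is shown with its NF-kB motifs. LAMB3 start 2, which shares bases with start 1, is not shown. Capitals mark the motifs. The LAMB3 sequences are start 1 at chr1:209652376-209652675 and start 3 at chr1:209651325-209651624, both on the minus strand, and the LAMA3 sequence is at chr18:23872770-23873069 on the plus strand.
LAMB3 start 1: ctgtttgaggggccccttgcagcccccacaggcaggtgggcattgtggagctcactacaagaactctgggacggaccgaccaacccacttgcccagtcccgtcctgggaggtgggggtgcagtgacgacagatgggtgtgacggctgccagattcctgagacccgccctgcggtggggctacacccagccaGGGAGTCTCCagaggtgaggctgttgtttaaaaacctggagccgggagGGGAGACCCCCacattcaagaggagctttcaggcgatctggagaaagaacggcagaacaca
LAMB3 start 3: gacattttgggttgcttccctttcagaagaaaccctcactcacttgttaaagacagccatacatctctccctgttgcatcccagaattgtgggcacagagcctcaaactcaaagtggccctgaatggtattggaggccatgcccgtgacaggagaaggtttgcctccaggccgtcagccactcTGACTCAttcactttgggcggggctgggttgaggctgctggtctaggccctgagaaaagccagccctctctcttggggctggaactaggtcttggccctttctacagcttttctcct
LAMA3: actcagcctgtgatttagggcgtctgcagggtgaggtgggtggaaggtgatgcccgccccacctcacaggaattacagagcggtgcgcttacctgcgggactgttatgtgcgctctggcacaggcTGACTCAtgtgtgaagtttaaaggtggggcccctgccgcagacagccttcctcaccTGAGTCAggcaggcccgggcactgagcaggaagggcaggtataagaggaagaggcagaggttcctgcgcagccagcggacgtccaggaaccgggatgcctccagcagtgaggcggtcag

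In these sequences the AP-1 motif began 67 bases before LAMB3 start 3 and 125 and 69 bases before the LAMA3 start. LAMB3 start 1 held the NF-kB motif from 59, 11 and 10 bases before it, the last pair of matches overlapping in all but 1 base. NF-kB motifs were in 9 of the 33 promoters of these genes and in 11.3% of all promoters, TFAP2 motifs in 9 of 33 and in 23.2%, and AP-1 motifs in 3 of 33, the third being ITGA5. Nearby starts of 1 gene share bases and are not independent. A match describes the letters alone, and no factor was measured at these promoters here.

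Among the receptors, ITGA2 encodes the α2 subunit, which pairs with β1 to bind collagen and, in epithelial cells, laminin too. ITGA2 (ENSG00000164171, at 52285170–52390609 on the plus strand of chromosome 5, GRCh37) was at 24.8 FPKM (17.4–32.2) in MDA-MB-231 against 51.0 FPKM (35.9–66.2) in LM2. The bounds were apart, LM2 was at 2.06 times MDA-MB-231 and the log2 change was 1.01 ± 0.29 (SE). No other annotated gene covers its exons. In the order of the α subunits ITGA2 stood behind ITGA3, ITGA6, ITGA5, ITGAV and ITGAE in MDA-MB-231, with bounds below those of ITGA5 and overlapping those of ITGAV and ITGAE. In LM2 it was listed behind ITGA3 and ITGA6, with bounds that overlapped those of ITGA5, ITGAE and ITGAV. Its promoter at chr5:52989102-52989401 on the plus strand of GRCh38.p14, shown because it is the called integrin gene with a sequence, held 1 TFAP2 motif, in capitals, that began 57 bases before the start.
ITGA2: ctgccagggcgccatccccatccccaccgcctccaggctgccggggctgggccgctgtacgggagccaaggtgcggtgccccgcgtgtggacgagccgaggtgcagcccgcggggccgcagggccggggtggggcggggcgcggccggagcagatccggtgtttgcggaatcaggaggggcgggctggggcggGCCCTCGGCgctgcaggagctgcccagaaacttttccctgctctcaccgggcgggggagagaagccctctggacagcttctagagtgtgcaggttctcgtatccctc

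The neighbouring gene ITGA1 encodes the other broadly expressed collagen-binding subunit, α1, and ends 30.1 kb before ITGA2 begins. ITGA1 was listed at 6.80 FPKM (0–18.6) and 23.4 FPKM (0–55.3). Its log2 fold change of 1.65 had an SE of 1.44, the lower bound was 0 in both cell lines and it was not called. PELO, a gene inside ITGA1 on the same strand, shares 2.69% of the exon bases of ITGA1 and had 12.6 FPKM (3.93–21.3) against 18.99 FPKM (0.926–37.1). ITGA10, the α10 subunit known from cartilage, had 1.33 FPKM (0.618–2.03) against 1.04 FPKM (0.530–1.54), and ITGA11, the α11 subunit known from fibroblasts, was at most 0.0869 FPKM. The 4 collagen-binding α subunits together were at 32.9 FPKM in MDA-MB-231 against 75.5 FPKM in LM2, of which ITGA2 held 75.3% and 67.5%.

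The abundant laminin-binding α subunits, ITGA3 and ITGA6, were listed at nearly the same level in both lines. ITGA3, which encodes α3, had 372 FPKM (241.1–503) against 373.8 FPKM (189.1–558.5), so its log2 ratio was 0.01 ± 0.44 (SE). ITGA6, which encodes α6, a partner of both β1 and β4, had 121.2 FPKM (80.5–161.9) against 131.6 FPKM (94.3–168.8). ITGA7, the α7 subunit of muscle, had 1.04 FPKM (0–2.72) against 0.741 FPKM (0–1.86). These 3 genes summed to 494.3 FPKM in MDA-MB-231 and 506.2 FPKM in LM2, a ratio of 1.02. ITGA3 alone held 57.6% of the FPKM of all α subunits in MDA-MB-231 and 53.5% in LM2. Its bounds lay above those of every other α subunit in both.

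Of the subunits that bind the RGD sequence, ITGA5, the fibronectin receptor chain, had 44.7 FPKM (34.1–55.3) against 49.6 FPKM (37.8–61.4). ITGAV, which pairs with several β subunits to bind vitronectin and to release active TGF-β, had 38.6 FPKM (28.9–48.2) against 31.6 FPKM (22.8–40.4). The bounds overlapped for both. ITGA8 and ITGA2B, the platelet subunit, were under the filter, at no more than 0.254 FPKM. ITGA4 and ITGA9, subunits that bind VCAM1, were under it too, at no more than 0.0750 FPKM.

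ITGB1, the β1 subunit and the partner of most α subunits, had the highest FPKM of the 37 genes. It was at 667.4 FPKM (443.9–890.9) in MDA-MB-231 against 759 FPKM (499.8–1018) in LM2, with a log2 fold change of 0.19 ± 0.34 (SE), and ranked 132 and 109 among all genes. Its FPKM was 1.09 times the sum of its 12 possible α partners in MDA-MB-231 and 1.14 times that sum in LM2.

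ITGB4 encodes β4, which joins α6 in the hemidesmosomes that tie epithelial cells to laminin. ITGB4 had 50.6 FPKM (32.2–69.1) against 34.5 FPKM (21.2–47.9), and ITGB5, a vitronectin receptor chain, had 97.3 FPKM (62.3–132.2) against 73.9 FPKM (47.8–99.9). Both were listed lower in LM2 by under 1.5-fold, with overlapping bounds. ITGA6 was listed at 2.39 times ITGB4 in MDA-MB-231 and at 3.81 times ITGB4 in LM2.

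The other partners of αV were low. ITGB3 had 3.21 FPKM (1.97–4.45) against 3.70 FPKM (2.28–5.13) in its main row, and its reads cannot be told apart from those of its second row, which is wholly covered by other genes and had 0.454 and 0.296 FPKM. ITGB8 had 0.478 FPKM (0.296–0.661) against 0.829 FPKM (0.548–1.11). ITGB6, known from epithelia, was at 1.12 FPKM (0.0997–2.14) in MDA-MB-231 against 0.0363 FPKM (0–0.225) in LM2. The bounds of each of these 3 genes overlapped between the lines, for ITGB6 and ITGB8 by a narrow margin.

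**Figure D3:**
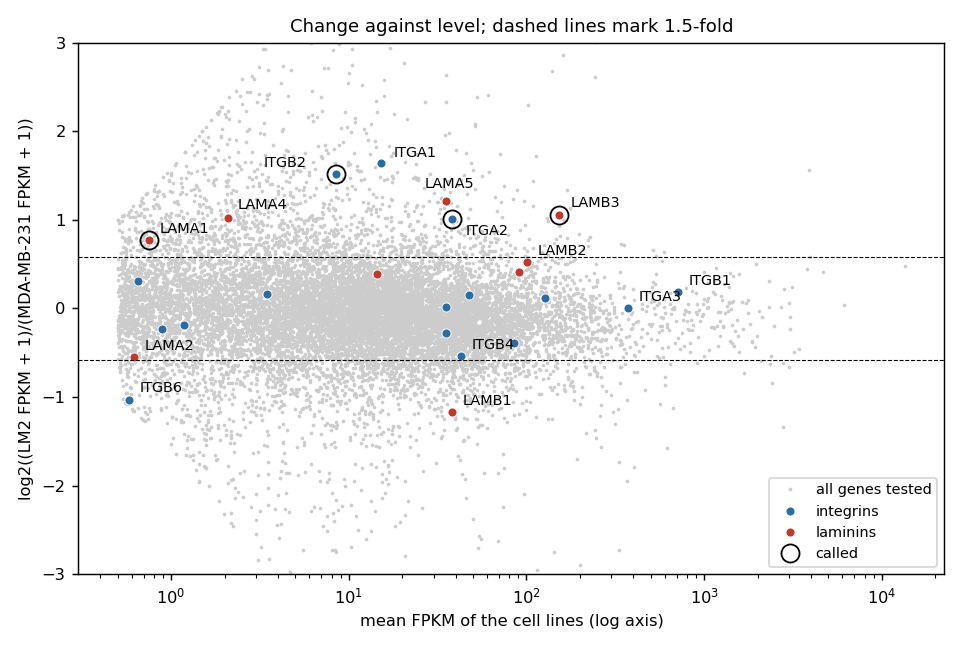
Log2 fold change of LM2 over MDA-MB-231 (FPKM + 1) against the mean FPKM (log axis) for the 13911 genes tested (grey), integrins (blue) and laminins (red), with the 4 called genes ringed and dashed lines at 1.5-fold. ITGB1 and ITGA3, at the highest levels, lie near 0, and 85 grey genes lie outside the plotted range.

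ITGB2 encodes β2, the subunit of the integrins of white blood cells. ITGB2 (ENSG00000160255, at 46305868–46351904 on the minus strand of chromosome 21, GRCh37) was at 3.93 FPKM (2.25–5.60) in MDA-MB-231 against 13.1 FPKM (8.14–18.0) in LM2. The bounds were apart, LM2 was at 3.33 times MDA-MB-231 and the log2 change was 1.51 ± 0.35 (SE). ITGB2-AS1 on the opposite strand covers 4.15% of its exon bases and had 0.504 FPKM (0–1.07) against 2.56 FPKM (0.628–4.49), so it was listed higher in LM2 too, without being called.

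The α partners of β2 were all under the filter. ITGAL, ITGAM, ITGAX and ITGAD summed to 0.129 FPKM in MDA-MB-231 and 0.281 FPKM in LM2. Each had a lower bound of 0 and an upper bound of at most 0.484 FPKM in both lines, below the lower bounds of ITGB2. ITGB7, another leukocyte subunit, was at 0.140 and 0.112 FPKM, with the gene ZNF740 over 42.3% of its exon bases on the opposite strand. ITGAE, the α partner of β7, had 35.0 FPKM (21.1–48.9) against 35.3 FPKM (21.0–49.7), and HASPIN on the opposite strand shares 6.47% of its exon bases. ITGAE therefore stood with the abundant α subunits in both lines while its partner was under the filter.

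White blood cell markers were read beside ITGB2. PTPRC, the CD45 gene, was at 0.0767 FPKM in MDA-MB-231 against 0.0263 FPKM in LM2, and CD3E was listed at 0 in both. These genes do not stand for the whole list. Of its 10 markers, 3 had at least 1 FPKM in MDA-MB-231 and 2 in LM2. The white blood cell markers summed to 112.2 and 182.1 FPKM, of which CD68, a lysosomal protein gene also active outside white blood cells, gave 107.0 and 178.9. In RNA from whole cultures, fewer cells of a type and less RNA per cell cannot be told apart. A listed 0 can be a failed estimate, as EEF1A1, which all cells use, stood at 0 and lacked an OK status.

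Under the filter were 13 rows in all. They were ITGA2B, ITGA4, ITGA8, ITGA9, ITGA11, ITGAD, ITGAL, ITGAM, ITGAX, ITGB7, the second row of ITGB3, LAMB4 and LAMC3. Their mean FPKM was at most 0.375, none was listed at 0 in either line, and no fold change was read from them.

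The genes around the called genes were compared to see whether whole stretches moved. Within 1 Mb, ITGA2 had 5 tested protein-coding neighbours with a median log2 fold change of 0.16, and none was called. ITGB2 had 15 with a median of -0.26, of which 4 were listed higher and 11 lower. LAMB3 had 5 with a median of 0.40, LAMA1 had 2 with a median of 0.24, and LAMB1, which was not called, had 11 with a median of -0.40. The neighbours called, named here after their values were seen, were PCBP3 (3.12) and COL18A1 (-1.53) near ITGB2 and G0S2 (3.01) near LAMB3. ITGB2 went against the median of its neighbours, whereas ITGA2, LAMB3, LAMA1 and LAMB1 went the way of the median of theirs. These medians rest on few genes of mixed sign. Near LAMA1, 1 neighbour was listed higher and 1 lower, and near ITGA2 and LAMB3, 3 were higher and 2 lower. ITGA1 is itself a neighbour of ITGA2. Whether whole stretches moved cannot be read from so few genes.

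**Figure D4:**
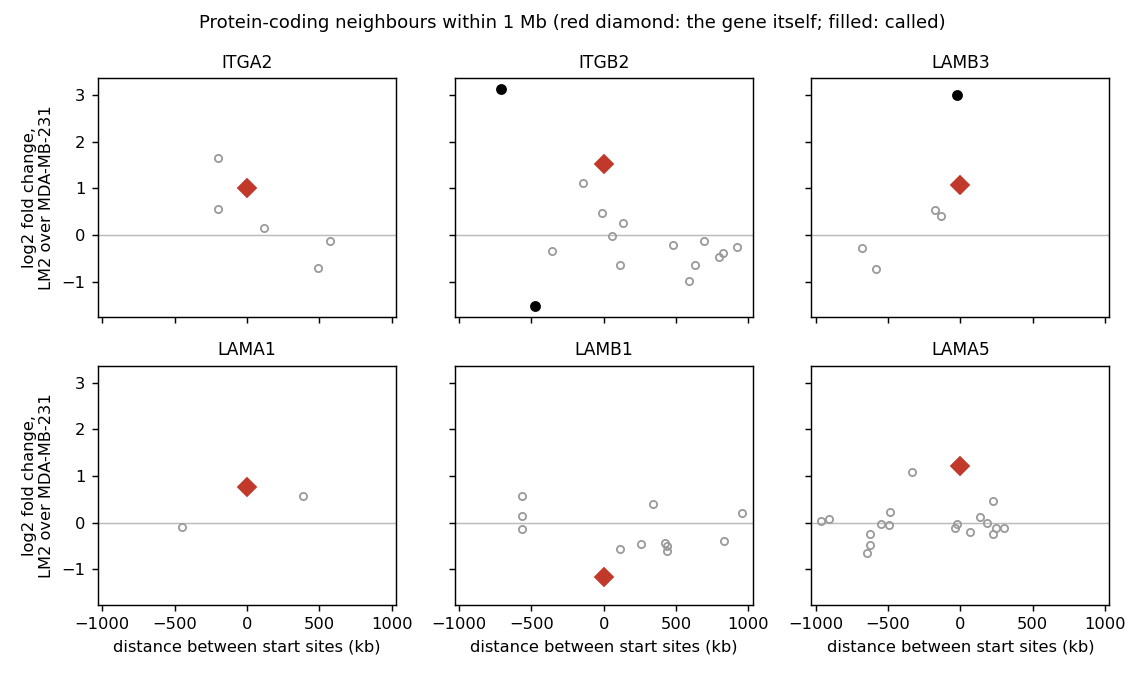
Log2 fold change of LM2 over MDA-MB-231 for tested protein-coding neighbours within 1 Mb (circles, filled where called) against the distance between start sites (kb), with the gene itself as a red diamond at 0, filled in all panels. Around ITGB2, 11 of 15 neighbours lie below 0, and G0S2, at 3.01, is the filled circle near LAMB3.

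Genes that work with integrins and laminins were read in 5 lists. Of the 22 tested genes that encode ligands of integrins other than laminins, 6 were called higher (27.3%) and 4 lower (18.2%), and the median log2 ratio was 0.08. Of all genes tested, 4.67% were called higher and 4.61% lower. The lists were chosen with earlier results of these data known, so their shares only describe them. Among the calls, FBLN5 passed the filter only through its LM2 value and COL1A2 only through its MDA-MB-231 value. The matrix protein gene TNC (tenascin C) was at 13.6 FPKM (9.63–17.6) in MDA-MB-231 against 55.8 FPKM (40.6–71.0) in LM2. VCAM1, a cell surface ligand, had 0.585 FPKM (0.338–0.832) against 11.6 FPKM (8.803–14.5). ICAM1, a ligand of the β2 integrins, had 30.8 FPKM (13.6–48.1) against 91.5 FPKM (66.9–116.1). All 3 were called higher, and so ICAM1 moved the same way as ITGB2, while ITGA4 and ITGA9, whose products bind VCAM1, were under the filter.

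The 2 chains of collagen I went apart. COL1A1 was called higher, with 3.16 FPKM (0.902–5.42) and 31.0 FPKM (15.5–46.5), and COL1A2 was called lower, with 2.76 FPKM (1.83–3.70) and 0.114 FPKM (0–0.3501). Of the fibroblast markers beside COL1A1, DCN and PDGFRA were under 0.14 FPKM in both lines. LUM and PDGFRB were called lower in LM2, at 0.178 and 1.91 FPKM against 1.34 and 9.44 in MDA-MB-231. LUM passed the filter only through its MDA-MB-231 value. THBS1, thrombospondin, had 351.6 FPKM (206.5–496.7) against 46.4 FPKM (30.2–62.5). FN1, fibronectin, the ligand of ITGA5, had 313.7 FPKM (208.9–418.5) against 117.3 FPKM (79.5–155.2). Both were called lower. CYR61, which had the highest mean of the list, had 470.6 and 683 FPKM and was not called. The 3 remaining calls, named after their values were seen, were ICAM2 and FBLN5 (higher) and EDIL3 (lower). FBLN5 had 0.226 FPKM (0–0.493) against 2.01 FPKM (1.29–2.73).

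Among 17 tested partners of laminins and laminin receptors outside the integrins, 1 was called higher (5.88%) and 2 lower (11.8%), with a median of -0.18. The shares of all genes tested were 4.67% and 4.61%. NTN4, a netrin that binds laminin γ1, had 5.99 FPKM (4.34–7.65) against 12.0 FPKM (8.74–15.3) and was called higher. BCAM, a receptor of laminin α5, went the other way from the value listed for LAMA5, with 18.7 FPKM (13.6–23.9) and 7.79 FPKM (5.30–10.3), and was called lower. COL4A2, a collagen IV chain of the basement membrane, was called lower too, with 96.6 FPKM (64.6–128.5) and 49.6 FPKM (34.9–64.2). RPSA and LGALS3, which had the highest means, were not called, and the laminin linkers NID1 and NID2 were under the filter.

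Of 16 membrane partners of integrins, 3 were called higher (18.75%) and 2 lower (12.5%), with a median of -0.01, beside 4.67% and 4.61% of all genes tested. CD9, a tetraspanin, had 164.6 FPKM (125.5–203.7) against 288.8 FPKM (220.6–356.9). PLAUR, the urokinase receptor, had 56.4 FPKM (42.9–69.9) against 101.0 FPKM (77.0–125.1), and EMP2 had 14.5 FPKM (7.91–21.0) against 38.8 FPKM (22.0–55.5). These 3 were called higher. CAV1, the main caveolin, was called lower, with 587.3 FPKM (437.5–737.1) and 151.1 FPKM (115.5–186.8). The tetraspanin TSPAN8 was called lower too, with 2.81 and 0.209 FPKM, and passed the filter only through its MDA-MB-231 value. BSG and CD44, both at over 300 FPKM in each line, were not called.

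Of 39 tested proteins of the cytoplasmic side of adhesions, 1 was called higher (2.56%) and 4 lower (10.3%), with a median of -0.21. Beside these stand 4.67% and 4.61% of all genes tested. LPXN, a relative of paxillin, had 12.3 FPKM (7.85–16.7) against 35.5 FPKM (24.1–46.9) and was called higher. The scaffold gene NEDD9 had 7.71 FPKM (5.72–9.71) against 0.617 FPKM (0.281–0.952). TNS4, a tensin that binds the tails of β subunits, had 13.5 FPKM (9.69–17.4) against 1.55 FPKM (0.635–2.47). With PARVA and LIMS2, which bind integrin-linked kinase, these were the 4 genes called lower, PARVA from 72.1 to 43.4 FPKM and LIMS2 from 13.5 to 5.88 FPKM. ACTN4 and FLNA, which link integrins to actin and had the highest means, were not called.

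Of 17 tested regulators of integrin activity and traffic, 2 were called higher (11.8%) and 1 lower (5.88%), with a median of 0.06. APBB1IP, a RAP1 effector that brings talin to integrins, had 9.44 FPKM (7.03–11.9) against 31.9 FPKM (24.5–39.3), and CIB1, which binds integrin α tails, had 50.1 FPKM (38.2–62.1) against 84.9 FPKM (64.9–104.8). Both were called higher. ITGBL1, a secreted protein gene related to the β subunits, was called lower, with 3.65 FPKM (2.28–5.03) and 0.687 FPKM (0.269–1.10). RAB11A and ITGB1BP1, at the highest means, were not called. Over the 5 lists, 13 of 111 tested genes were called higher and 13 lower, 11.7% on each side, beside 4.67% and 4.61% of all genes tested. The list of integrin ligands alone gave 6 of those higher and 4 of those lower.

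**Figure D5:**
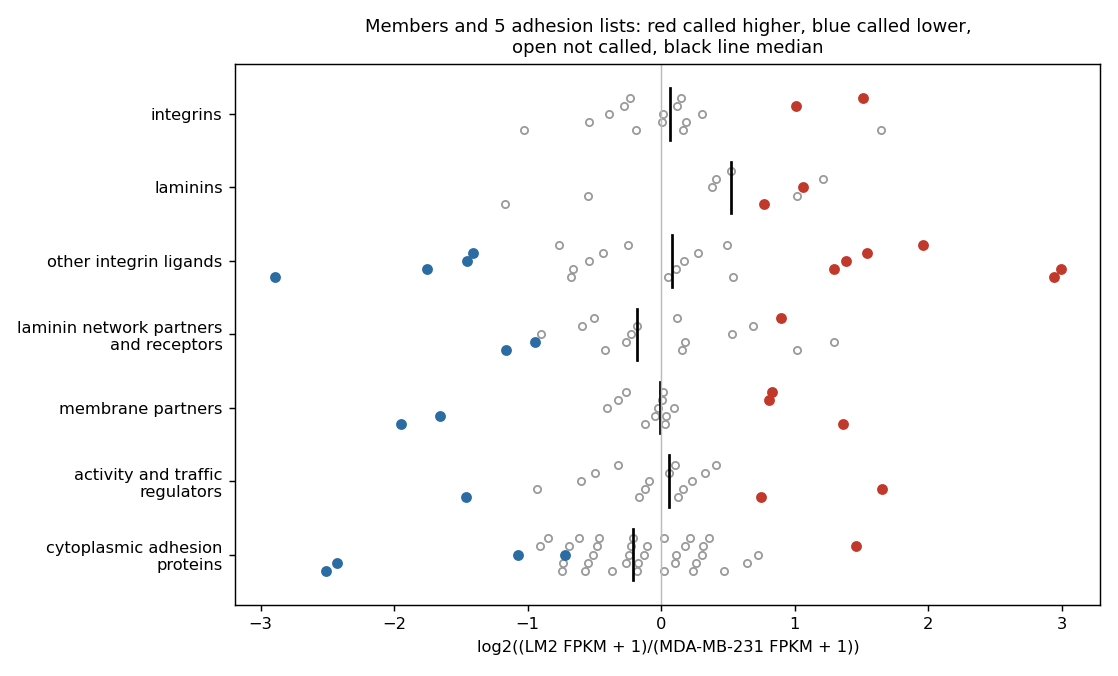
Log2 fold change of LM2 over MDA-MB-231 (FPKM + 1) for tested integrins, laminins and the genes of 5 adhesion lists, with red points called higher, blue points called lower, open points not called and a black line at each median. The medians lie between -0.21 (cytoplasmic adhesion proteins) and 0.52 (laminins), and no integrin or laminin is blue.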

How the data were processed

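The authors sequenced RNA of LM2-4175 and MDA-MB-231 on an Illumina HiSeq as paired reads of 150 bases, 2 TruSeq libraries for each. Reads were aligned to hg19 with TopHat 2.0, and FPKM of GENCODE 19 genes were computed with Cufflinks. The authors also tested genes for differences between cell lines with cuffdiff, and the calls here follow another rule, without a test. The deposited FPKM, 1 per gene and cell line, stand beside bounds and a status, so the libraries cannot be read apart. The normalization between libraries, the use of strand and what the bounds cover are not stated in the sources used here.

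The change of a gene was taken as the log2 ratio of FPKM + 1. Genes with status OK and a mean of at least 0.5 FPKM were tested across the whole table, and a call needed a 1.5-fold change and bounds that did not overlap. The SE of an FPKM was its distance from the upper bound over 2, carried to the log2 scale. Limma had been planned for values per library and was not run. A call compares these libraries and not replicates of a condition.

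The gene names, the adhesion lists and the marker lists were chosen with earlier results of these data known. All 37 genes are accounted for. Of each adhesion list, every called gene up to 6 by size of change and at most 2 more with the highest mean FPKM are named. Markers of white blood cells, fibroblasts, endothelium, platelets and lung epithelium were read, and those of the last 3 lists summed to at most 2.63 FPKM in either line. Within these lists KDR (endothelium, 0.971 and 2.48 FPKM) and GP1BA (platelets, 0.159 and 0.989 FPKM) were called higher in LM2. GP1BA passed the filter only through its LM2 value. The value of 1 white blood cell marker is not reported here. Positions and exon overlaps came from GENCODE 44 on GRCh37 by gene identifier, and promoters from RefSeq on GRCh38.p14 by symbol. Python 3.11.15, NumPy 2.4.6, pandas 2.3.3 and Matplotlib 3.10.9 were used, and the steps were tested on simulated data. Other pseudocounts, filters, thresholds and scalings were tried.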

Additional observations from a re-analysis of the deposited data

How the results depend on the processing

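The 25 tested genes gave 225 log2 fold changes under 9 alternatives, and 218 of them kept their sign and their side of the call. Most of this was fixed in advance. Changes of filter, fold or bounds leave the log2 value as it is, and another added FPKM cannot change its sign. Only the settings that rescaled the cell lines could have changed a sign. With a mean of at least 1 FPKM, 20 rows stayed tested, and uncalled genes that dropped out were counted as kept. Their size depended on the 1 FPKM added for low genes. With none added, the log2 change went from -1.03 to -4.95 for ITGB6, from 0.77 to 2.03 for LAMA1, from -0.55 to -1.56 for LAMA2, from 0.31 to 0.79 for ITGB8 and from 1.02 to 1.58 for LAMA4, and ITGA7 and ITGA10 also moved by over 1.5 times. Of the rest, 5 crossed into a call by the fold alone (ITGA1, LAMA4, LAMA5, LAMB1 and ITGB6) and 2 lost it (LAMA1 with a mean of at least 1 FPKM or a 2-fold change), and none changed sign. ITGA2, ITGB2 and LAMB3 were called under each of the 9. With the fold alone, 7 integrin and laminin genes were higher and 2 lower, 1434 and 1640 of all genes tested, and 18 genes of the adhesion lists were higher and 26 lower, against 13 and 13 with the bounds. With a 2-fold change, 450 of all genes tested were higher and 403 lower. Scaling both cell lines to the same FPKM sum moved the median of all genes tested by 0.07 on the log2 scale and gave 731 genes higher and 540 lower, so 57.5% of calls were higher against 50.3% with FPKM as deposited. No paired analysis was possible because each cell line has 1 value that combines its replicates, and leaving out each replicate was not run for the same reason. The bounds were wide for ITGA1 and LAMA5, and the cause was not tested.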
